A study of Mus musculus and Sus scrofa with 30 samples.

Results

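Magnolol and dicoumarol were compared with each other as single additions to differentiating 3T3-L1 cells, a mouse embryonic fibroblast line that turns into fat cells when given adipogenic hormones. The comparison rests on 6 of the 30 bulk RNA-seq libraries of the series, 3 labelled magnolol and 3 labelled dicoumarol, chosen by those labels. Magnolol is a lignan of magnolia bark, and dicoumarol is a coumarin anticoagulant that blocks vitamin K recycling and inhibits the quinone reductase NQO1. All 3T3-L1 groups, controls included, shared 1 induction medium, with insulin at 0.75 µg/mL, IBMX at 37.5 µM, dexamethasone at 75 nM and fetal bovine serum at 10%, and were harvested on day 5. The other 3T3-L1 groups, of 3 libraries each, were the DMSO vehicle, dicoumarol together with magnolol (the combination below), and rosiglitazone, a synthetic agonist of PPARγ. The same 5 treatments were given to porcine dedifferentiated fat (DFAT) cells, which are used here only to set the same comparison beside the mouse one. The sources used here give no compound doses, so the 2 compounds are compared as they were applied and not at matched doses. The labels do not say whether replicates were separate cultures, and p-values therefore measure only the spread between these libraries.

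In 3T3-L1 cells the induction hormones act through the C/EBP transcription factors and the nuclear receptor PPARγ, which together switch on the genes of lipid uptake, triglyceride synthesis, lipid droplet coating and adipokine secretion. Preadipocyte genes such as Dlk1, and many genes of the stromal matrix, are lost as the cells fill with fat. IBMX raises cyclic AMP, dexamethasone acts on the glucocorticoid receptor, and insulin drives glucose uptake and lipogenesis.

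Levels are the authors' normalized counts, gene counts divided by a size factor of each library. They compare 1 gene between libraries and are not corrected for gene length. Differences between the compounds are magnolol minus dicoumarol on the scale of log2(normalized count + 1), where 1 is a 2-fold higher level with magnolol, and they understate changes of low genes. Replicates carry the numbers 1 to 3 in each treatment. Libraries of the same number deviated from their group means together: for magnolol and dicoumarol the 3 same-numbered pairs correlated at 0.280, 0.378 and 0.462 across genes, against −0.318 to −0.0200 for the 6 pairs of unlike number. Deviations from a group mean cancel within each gene, so positive same-numbered pairs make pairs of unlike number negative on average. The pairs of unlike number are thus not a separate check. Because same-numbered libraries deviated together, tests are given both without and with the replicate number as a block. Estimated depth was 24.9 to 27.2 M reads in the magnolol libraries and 27.5 to 30.0 M in the dicoumarol libraries, which do not overlap.

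Magnolol gave the higher levels of fat cell genes. Among 15723 genes tested, 79 (0.502%) separated the compounds with an adjusted p under 0.05 when the replicate block was in the limma model: 66 were higher with magnolol (0.42% of genes tested) and 13 were higher with dicoumarol (0.0827%). The genes higher with magnolol were led by Cidec, Cd36, Mrap, Adipoq and Plin1, and those higher with dicoumarol by Cxcl13, Mmp3, Atp1b1 and Mgp, among genes with a mean of at least 100. Without the block, limma called 0 genes (0%), with a smallest adjusted p of 0.972, although 693 had an unadjusted p under 0.05. With the block and only the 6 libraries of the 2 compounds, limma called 951 genes (6.05%), 482 higher (3.07%) and 469 lower (2.98%) with magnolol, and all 79 genes were among them. The share of calls that were higher with magnolol thus differed between these fits. It depended on the libraries too: with the block, 23 to 49 genes were called when 1 of the 6 libraries was left out, and 42, 36 and 3 when replicate 1, 2 or 3 of every group was left out.

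All 79 genes moved the same way in the 3 same-numbered pairs, as did 21.4% of all genes upwards and 20.7% downwards. In 34 of the 66 and 7 of the 13 the compounds' libraries did not overlap, against backgrounds of 5.86% and 6.36%. These counts come from the contrast that called the genes and are descriptions. The differences of the 66 genes ranged from 0.36 to 1.77 with a median of 0.68, and 17 reached 2-fold. Those of the 13 ranged from −0.33 to −1.42 with a median of −0.48, and 1 reached 2-fold. Of all genes tested 7989 were above 0 and 7734 below 0, and their median difference was 0.0034. In the sections that follow, a gene "called" is one that passed with the replicate block and all 15 3T3-L1 libraries in the model, and each adjusted p is from that limma fit unless another is named.

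Cidec, a lipid droplet gene, had the widest difference of the genes higher with magnolol. Cidec (ENSMUSG00000030278, chromosome 6), whose protein fuses lipid droplets into large ones, had 3224, 718 and 1314 normalized counts with dicoumarol and 6883, 3597 and 4894 with magnolol, in replicate order 1 to 3. Every magnolol library was above every dicoumarol library, and the gap between them was widest in replicate 2, at 5.01-fold, against 2.13-fold and 3.73-fold in the other two. The difference was 1.77 ± 0.27 (SE, n = 3 per group), a 3.41-fold higher level, with an adjusted p of 0.00496. That call was lost without dicoumarol replicate 2, without magnolol replicate 2 or 3, and without replicate 2 or 3 of every group (highest adjusted p 0.125 over the fits that left out libraries).

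Plin1 (ENSMUSG00000030546, chromosome 7), the perilipin that coats fat cell droplets and gates lipolysis, was measured at 892, 296 and 755 with dicoumarol and at 1828, 1144 and 1807 with magnolol. The groups did not overlap, and the difference was 1.41 ± 0.17 (adjusted p 0.000944). The hormone-sensitive lipase gene Lipe differed by 0.87 (adjusted p 0.00117) and the triglyceride lipase gene Pnpla2 by 0.52 (adjusted p 0.00245), so both of these lipase genes were higher with magnolol together with Plin1. The other tested perilipin genes, named after their values were seen, were not called. Plin2 differed by 0.0065 (adjusted p 0.983), Plin4 by 0.30 (adjusted p 0.326) and Plin3 by −0.12 without overlap (adjusted p 0.642). G0s2, an inhibitor of the PNPLA2 lipase, differed by 1.10 with an adjusted p of 0.0497. In all, 11 of the 13 tested genes of the lipid droplet coat and lipolysis list were above 0, with a median of 0.47. Of the 13, 5 were called higher and 0 lower, against 0.42% and 0.0827% of all genes. Plin1 and Lipe lost their calls only without replicate 3 of every group among the 9 fits that left out libraries, Pnpla2 in 3 of the 9 and G0s2 in 8 of the 9.

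**Figure D1:**
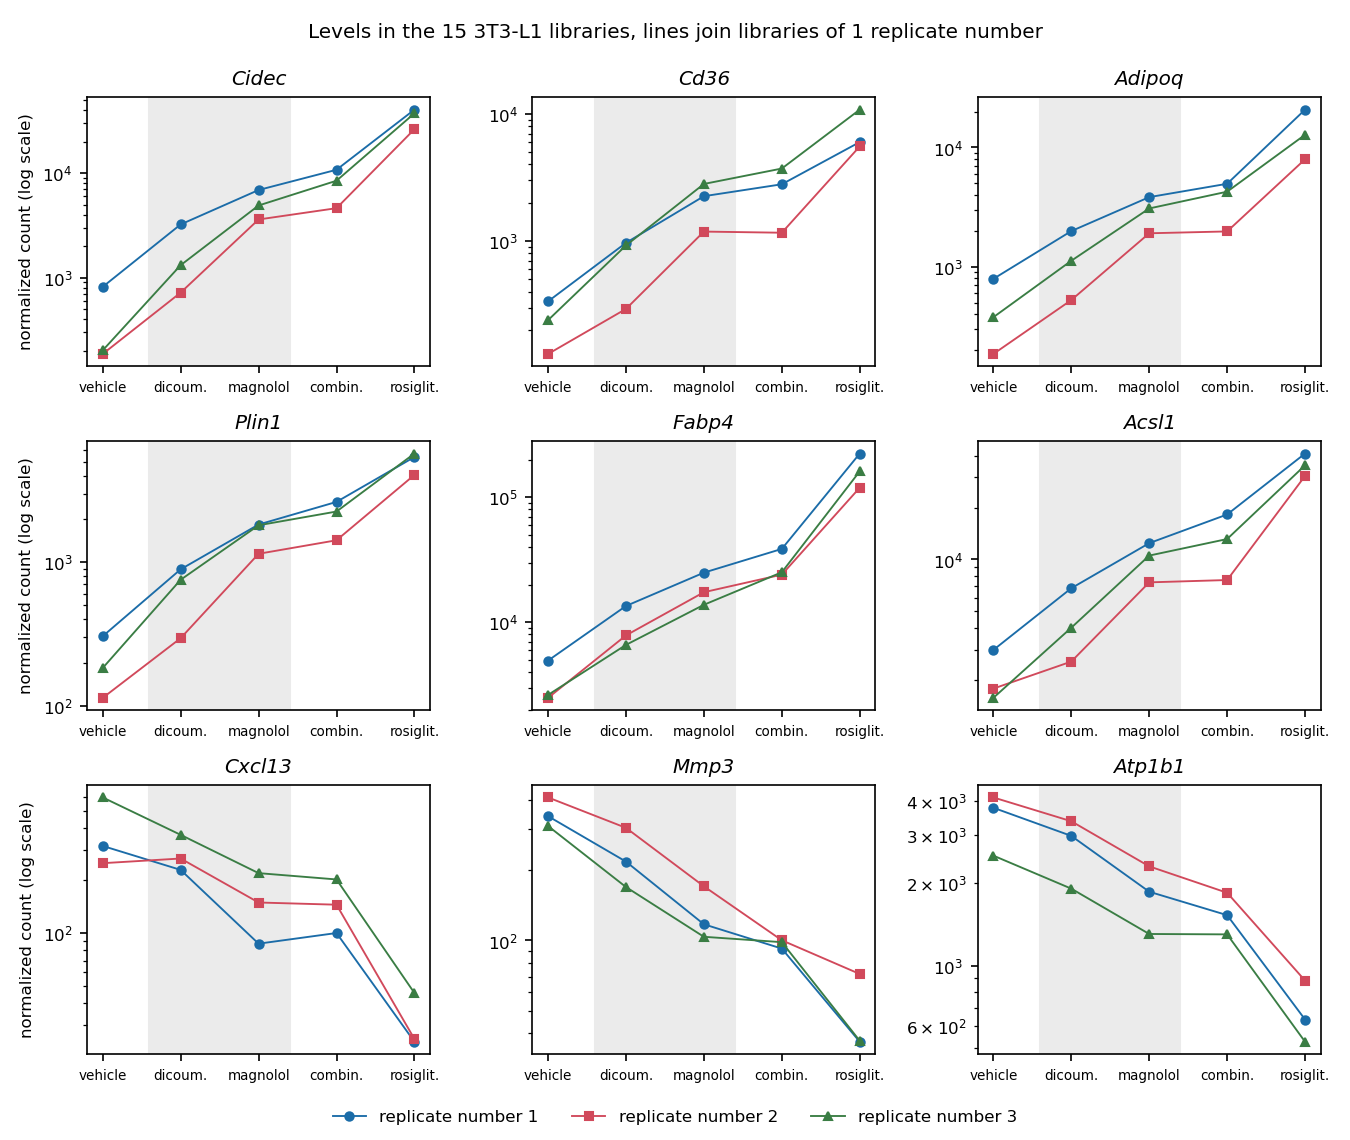
Normalized counts on a log scale of 9 genes in the 15 3T3-L1 libraries, by treatment; points are single libraries, lines join libraries of the same replicate number, and the grey band marks the 2 compounds compared. Cidec, Cd36, Adipoq, Plin1, Fabp4 and Acsl1 step up from dicoumarol to magnolol in all 3 lines, and Cxcl13, Mmp3 and Atp1b1 step down.

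Genes of fatty acid uptake followed. Cd36 (ENSMUSG00000002944, chromosome 5), the fatty acid translocase of the cell surface, had 967, 292 and 922 normalized counts with dicoumarol and 2252, 1187 and 2811 with magnolol. Its lowest magnolol library was above its highest dicoumarol library, and the difference was 1.61 ± 0.22 (adjusted p 0.00171). Fabp4 (ENSMUSG00000062515, chromosome 3), the abundant fatty acid carrier of the fat cell cytoplasm, had 13517, 7866 and 6604 with dicoumarol and 24975, 17420 and 13820 with magnolol. Its groups did not overlap, its fold was even across the pairs at 1.85, 2.21 and 2.09, and its difference was 1.03 ± 0.12 (adjusted p 0.000756).

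Acsl1 (chromosome 8), which joins fatty acids to coenzyme A, stood at 6806, 2555 and 4016 with dicoumarol and at 12433, 7364 and 10530 with magnolol, a difference of 1.26 ± 0.16 without overlap (adjusted p 0.00144). The lipoprotein receptor gene Scarb1 differed by 0.69 (adjusted p 0.00144) and the second carrier gene, Fabp5, by 0.67 (adjusted p 0.000944). Lipoprotein lipase, Lpl, which frees fatty acids from lipoproteins, was not called: it had 73586, 55043 and 49177 with dicoumarol and 90202, 69342 and 59614 with magnolol, a difference of 0.30 with a 95% interval of 0.10 to 0.51 and an adjusted p of 0.293. Of 14 tested genes of fatty acid uptake and lipoprotein handling, 13 were above 0, with a median of 0.22. Of the 14, 5 were called higher and 0 lower, against 0.42% and 0.0827% of all genes. Fabp4 was called in all 9 fits that left out libraries, and Cd36, Acsl1, Scarb1 and Fabp5 in all but the fit without replicate 3 of every group.

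Triglyceride synthesis genes leaned to magnolol at each step of the list. All 12 tested members of the list were above 0, with a median difference of 0.54. Limma called 5 of the 12 higher and 0 lower, against 0.42% and 0.0827% of all genes. Agpat2 and Dgat1, for the second and the last acylation, had the smallest adjusted p of all genes tested, 0.000425 each, together with Plaat3, a gene of no list named here after its values were seen. Agpat2 had 1757, 958 and 1318 with dicoumarol and 2704, 1833 and 1985 with magnolol, and Dgat1 had 1023, 717 and 978 against 1570, 1046 and 1522. Neither gene overlapped between compounds, and the differences were 0.72 ± 0.08 and 0.60 ± 0.06. Dgat2, the other enzyme of the last step, differed by 1.19 ± 0.18 (adjusted p 0.00434), Gpat3 of the first step by 0.89 (adjusted p 0.0333) and the phosphatidate phosphatase Lpin1, named after its values were seen as the fifth call of the list, by 0.48 (adjusted p 0.0389). Gpat3 lost its call in all 9 fits that left out libraries, Lpin1 in 8 and Dgat2 in 3 (magnolol replicate 2, or replicate 2 or 3 of every group; highest adjusted p 0.141), while Agpat2 and Dgat1 lost it only without replicate 3 of every group.

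Among genes of lipogenesis from glucose, 2 of 15 tested were called higher and 0 lower, against 0.42% and 0.0827% of all genes. Scd1, the desaturase that makes monounsaturated fatty acids, was at 11267, 7371 and 4444 with dicoumarol and at 18079, 13341 and 8211 with magnolol, and the difference was 0.81 ± 0.13 (adjusted p 0.00608). Pcx, pyruvate carboxylase, differed by 0.59 (adjusted p 0.00608). Fatty acid synthase, Fasn, had 10135, 8969 and 10972 with dicoumarol and 11872, 12108 and 14018 with magnolol, 0.34 apart with an adjusted p of 0.159. Thrsp, a lipogenic regulator, differed by 1.18 with a 95% interval of 0.49 to 1.86 and an adjusted p of 0.18. The list had 14 of 15 genes above 0 and a median of 0.18. The limma fit of the 6 libraries alone called 7 of the 15 higher and 0 lower, against 3.07% and 2.98% of all genes. Fasn and Thrsp were among those 7, with adjusted p of 0.00167 and 0.00075 in that fit. Scd1 kept its call in 3 and Pcx in 4 of the 9 fits that left out libraries; both lost it without dicoumarol replicate 2, magnolol replicate 2 or magnolol replicate 3, and the highest adjusted p was 0.346 for Scd1 and 0.14 for Pcx.

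Secreted fat cell products included the adipokine Adipoq, adiponectin (ENSMUSG00000022878, chromosome 16). It had 1994, 528 and 1125 normalized counts with dicoumarol and 3838, 1912 and 3085 with magnolol. Each magnolol library was above its same-numbered dicoumarol library, by 1.93-fold, 3.62-fold and 2.74-fold, while magnolol replicate 2 lay just below dicoumarol replicate 1. The difference was 1.42 ± 0.16 (adjusted p 0.00052). Retn, resistin, differed by 1.08 ± 0.22 (adjusted p 0.0394). All 7 tested adipokine genes were above 0 with a median of 0.29, and these 2 were called higher, against 0.42% of all genes. Among the 9 fits that left out libraries, Adipoq lost its call without replicate 3 of every group (adjusted p 0.0717), and Retn kept its call only without dicoumarol replicate 1 and without replicate 1 of every group (highest adjusted p 0.766). Lep, leptin, had a mean of 2.77 normalized counts over the 15 libraries and was not tested.

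Among the transcription factors that run the programme, Cebpa was called and Pparg was not. Cebpa, C/EBPα, was at 728, 329 and 882 with dicoumarol and at 1079, 559 and 1215 with magnolol. The groups overlapped, and the difference was 0.60 ± 0.11 (adjusted p 0.0174). Pparg, the PPARγ gene itself, had 1624, 1184 and 1484 with dicoumarol and 1916, 1567 and 1789 with magnolol. Its difference was 0.30 ± 0.07 with a 95% interval of 0.16 to 0.44 and an adjusted p of 0.0572, and in the fit of the 6 libraries alone the adjusted p was 0.00667. With the block its adjusted p was 0.049 under quantile normalization, 0.0457 under upper-quartile scaling and 0.157 with no variance trend, and it was called in 0 of the 9 fits that left out libraries (0.11 to 0.881). The coactivator gene Ppargc1b, at 89.2, 60.9 and 66.3 with dicoumarol and 185, 119 and 121 with magnolol, differed by 0.95 without overlap (adjusted p 0.00346), and Nr1h3, the sterol receptor LXRα, by 0.62 (adjusted p 0.0185). Of 18 tested adipogenic factors, 12 were above 0, with a median of 0.19. Of the 18, 3 were called higher and 0 lower, against 0.42% and 0.0827% of all genes. The fit of the 6 libraries alone called 6 higher and 3 lower, against 3.07% of all genes higher and 2.98% lower. Those 3 were Cebpb at −0.37, Klf4 at −0.28 and Klf5 at −0.27, named after their values were seen. Cebpa and Nr1h3 were called in 1 of the 9 fits that left out libraries, the one without dicoumarol replicate 3. Ppargc1b was called in 6, and lost its call without magnolol replicate 2 and without replicate 1 or 3 of every group (highest adjusted p 0.125).

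Slc2a4, the insulin-responsive glucose transporter GLUT4, was low: 42.4, 6.67 and 13.7 normalized counts with dicoumarol and 58.2, 30.6 and 60.7 with magnolol. Its difference was 1.52 ± 0.30 (adjusted p 0.0389), and the call was kept in 2 of the 9 fits that left out libraries. It was the only called gene among 15 tested genes of insulin signalling and caveolae, of which 13 were above 0.

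Wide differences were also seen in genes outside these lists. Mrap, a partner of melanocortin receptors, differed by 1.42 (adjusted p 0.0333), and Mc5r, a melanocortin receptor gene, by 1.25 ± 0.16 (adjusted p 0.00134). Mc5r had 90.1, 40.0 and 94.6 with dicoumarol and 219, 101 and 213 with magnolol, without overlap, and its fold was nearly the same in each pair, 2.43, 2.53 and 2.25. Lgals12, a galectin of lipid droplets, differed by 1.30 (adjusted p 0.0068), and Fam83a by 1.30 (adjusted p 0.00537). Mc5r was called in all 9 fits that left out libraries. Lgals12 was lost without dicoumarol replicate 3, magnolol replicate 2 or replicate 3 of every group (highest adjusted p 0.182), Fam83a without magnolol replicate 2 or 3 or replicate 3 of every group (0.344), and Mrap in 7 of the 9 (0.321).

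**Figure D2:**
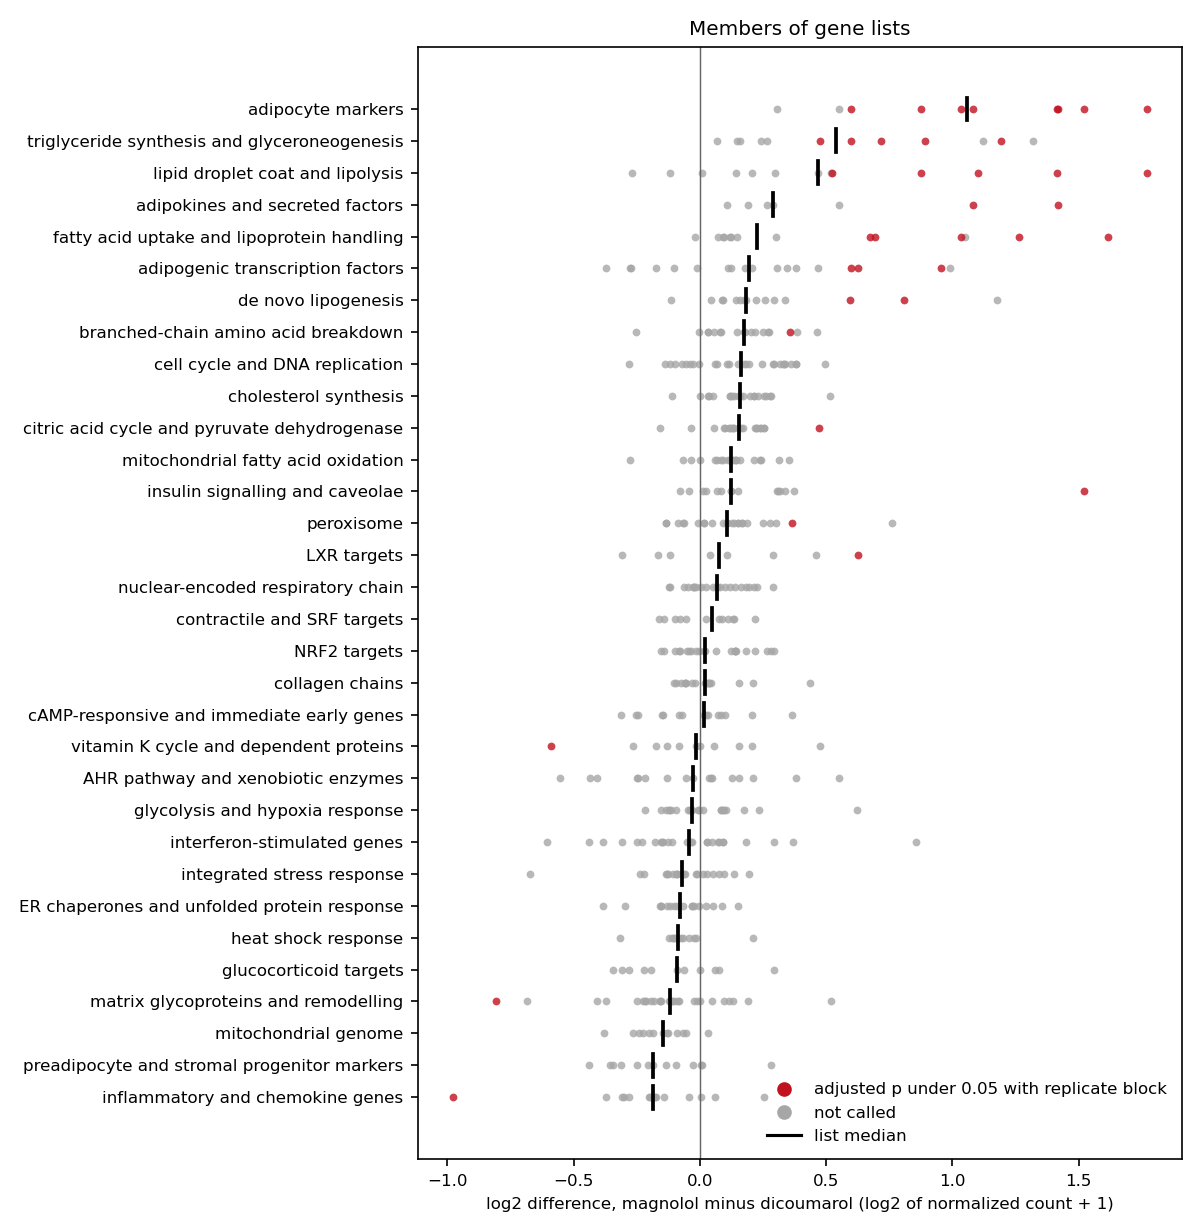
Differences between magnolol and dicoumarol on the log2 scale for every tested member of 32 gene lists, ordered by list median; each point is 1 gene, red points were called with the replicate block, and black bars are medians. Fat cell, triglyceride and lipid droplet lists lie furthest to the right, and the 3 red points on the left are Mgp, Mmp3 and Cxcl13.

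Few genes of oxidative metabolism or cholesterol synthesis were called. In the citric acid cycle 19 of 21 tested genes were above 0 with a median of 0.15, and Idh3a, a subunit of isocitrate dehydrogenase, was called at 0.47 (adjusted p 0.0117). Branched-chain amino acid breakdown had 16 of 18 above 0, a median of 0.18 and 1 call, Hibch at 0.36 (adjusted p 0.0423). Peroxisomal genes had 19 of 25 above 0, and Crat, carnitine acetyltransferase, was called at 0.37 (adjusted p 0.0343). Mitochondrial fatty acid oxidation had 17 of 20 above 0 with a median of 0.12, cholesterol synthesis 20 of 21 with a median of 0.16, and the nuclear-encoded respiratory chain 16 of 24 with a median of 0.069, with 0 genes called in each. The respiratory chain genes differed by pair, with 24, 15 and 12 of 24 above 0 and medians of 0.13, 0.069 and 0.0083 in pairs 1 to 3. In the fit of the 6 libraries alone, 5 of 20 fatty acid oxidation, 8 of 21 cholesterol and 5 of 24 respiratory chain genes were called higher. So were 8 of 21 citric acid cycle, 8 of 18 branched-chain and 2 of 25 peroxisomal genes. In each of these lists 0 were called lower. That fit called 3.07% of all genes higher and 2.98% lower. Idh3a was called in 2 of the 9 fits that left out libraries, and Hibch and Crat in 0.

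The 13 protein-coding genes of the mitochondrial genome lay below 0 in 12 cases, with a median of −0.15 and 0 calls. Under quantile normalization the median was −0.053. The shift was widest in replicate 2: the medians were 0.018, −0.47 and −0.089 in pairs 1 to 3, and 7, 0 and 4 of the 13 genes were above 0. The mitochondrial share of all normalized counts was 6.36% to 7.72% with dicoumarol and 5.94% to 7.46% with magnolol, overlapping ranges.

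Genes higher with dicoumarol than with magnolol included secreted and membrane proteins of stromal cells. Cxcl13 (ENSMUSG00000023078, chromosome 5), a chemokine that attracts B cells, had 230, 267 and 364 normalized counts with dicoumarol and 87.3, 150 and 220 with magnolol. Every magnolol library was below every dicoumarol library, and the difference was −0.98 ± 0.17 (adjusted p 0.0185). Mmp3 (chromosome 9), the matrix protease stromelysin, had 218, 305 and 170 against 117, 171 and 104, a difference of −0.81 ± 0.16 with overlapping groups (adjusted p 0.0395). Atp1b1 (chromosome 1), the beta subunit of the sodium pump, had 2985, 3378 and 1913 against 1864, 2309 and 1306. Its difference was −0.59 ± 0.08, with nearly the same ratio in each pair (adjusted p 0.00288). Of the 9 fits that left out libraries, Atp1b1 lost its call only without replicate 3 of every group. Cxcl13 kept its call without dicoumarol replicate 3, without magnolol replicate 2 and without replicate 2 of every group (highest adjusted p 0.344 elsewhere), and Mmp3 lost it in each (highest 0.418).

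The remaining named genes that were lower with magnolol differed by less. Mgp, matrix Gla protein, a vitamin K-dependent inhibitor of calcification, had 2344, 3670 and 1874 with dicoumarol and 1651, 2406 and 1191 with magnolol, a difference of −0.59 (adjusted p 0.0333). Tinagl1, a matrix glycoprotein, differed by −0.49 (adjusted p 0.0296), B2m, the light chain of MHC class I, by −0.42 (adjusted p 0.0497), and the tetraspanin Cd9 by −0.34 (adjusted p 0.0458), all 3 without overlap. Mxra7 stood at −0.42, Pmepa1, an inhibitor of TGF-beta signalling, at −0.40, Rilpl1 at −0.34 and the organic anion transporter gene Slco3a1 at −0.33, with adjusted p from 0.0389 to 0.0458. Ctla2a differed by −0.48 (adjusted p 0.00537), and how reads were divided between it and its close paralog Ctla2b is uncertain. Ctla2a was called in 4 of the 9 fits that left out libraries, and the other genes of this paragraph in 0.

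Serpinc1, the gene of the anticoagulant antithrombin, had the lowest difference of the 79 and was named after its values were seen, since its mean was under 100. It had 99.4, 108 and 81.1 normalized counts with dicoumarol and 66.3, 41.3 and 15.6 with magnolol, a difference of −1.42 ± 0.30 (adjusted p 0.0468), and was called in 1 of the 9 fits that left out libraries. The drop was deepest in replicate 3. In the vehicle libraries Serpinc1 had 121, 83.1 and 110, close to the dicoumarol values.

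Promoter sequences are shown for the gene with the widest called difference on each side that carried a match to a nuclear receptor half-site. RefSeq windows of 250 bases before the start site (assembly GRCm38.p6) were at hand for 7 of the 12 genes with the widest differences above 0 and for 9 of the 12 below 0. Both strands were searched. Capitals mark matches, written 5′ to 3′ on the gene's strand: in Cd36 (chr5:17835897-17836146, minus strand) TGACCT, the reverse strand of the half-site AGGTCA, first base 228 bases before the start, and in Cxcl13 (chr5:95956689-95956938, plus strand) the antioxidant element (TGAC and GCA with 3 bases between them) 99 bases and the same half-site 87 bases before the start.
Cd36: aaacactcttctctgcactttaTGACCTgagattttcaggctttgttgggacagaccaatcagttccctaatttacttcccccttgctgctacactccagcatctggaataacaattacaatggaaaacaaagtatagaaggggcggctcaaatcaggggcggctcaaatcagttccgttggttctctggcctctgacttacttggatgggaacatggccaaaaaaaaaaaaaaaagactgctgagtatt
Cxcl13: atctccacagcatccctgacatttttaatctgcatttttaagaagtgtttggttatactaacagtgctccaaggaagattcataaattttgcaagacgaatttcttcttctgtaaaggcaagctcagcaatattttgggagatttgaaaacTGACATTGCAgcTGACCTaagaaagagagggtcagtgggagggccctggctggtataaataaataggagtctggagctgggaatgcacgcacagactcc
The half-site was in 1 of the 7 and 1 of the 9 genes and in 12.6% of the 10167 tested genes with a window, and it is given as a background. The antioxidant element was in 2.59% of windows, and the sterol element TCACNCCAC, found in Acsl1 76 bases before a start, in 1.20%. The direct repeat that PPARγ binds, 2 copies of AGGTCA with 1 base between them, the C/EBP palindrome TTGCGCAA and the xenobiotic element TTGCGTG were in none of these 16 genes' windows, and in 0.0492%, 0.285% and 1.79% of all. A match is a description of letters and not a bound site.

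Lists of stromal genes leaned below 0, with few calls when all 15 libraries were in the model. Matrix glycoproteins and remodelling genes had 22 of 29 below 0 with a median of −0.12 and 1 call (Mmp3), inflammatory and chemokine genes 12 of 15 with a median of −0.19 and 1 call (Cxcl13), and 0 were called higher in either. The limma fit of the 6 libraries alone called 6 of the 29 matrix genes lower and 0 higher. It called 4 of the 15 inflammatory genes lower and 1 higher, against 2.98% of all genes lower and 3.07% higher. Timp1, an inhibitor of metalloproteinases, had 942, 1269 and 1169 against 832, 908 and 855 and differed by −0.37 without overlap. Its adjusted p was 0.126, or 0.00667 in the fit of the 6 libraries alone. Against vehicle, the shared reference, the matrix list median was −0.17 with dicoumarol and −0.28 with magnolol. That of the inflammatory list was −0.19 with dicoumarol and −0.38 with magnolol. Between the compounds, collagen chains lay around 0, with 9 of 17 above and a median of 0.019. Col1a1, the main fibrillar collagen chain, had 75323, 88964 and 95016 with dicoumarol and 74976, 82034 and 91318 with magnolol, a difference of −0.060 with a 95% interval of −0.25 to 0.13.

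The adipocyte marker list gathers genes most of which were described above, so its counts restate their calls: Adipoq, Plin1, Cidec, Fabp4, Retn, Slc2a4, Pparg, Cebpa, Lipe and Cfd were tested. Of these 10 adipocyte markers all were above 0, 8 were called higher and 0 lower, against 0.42% and 0.0827% of all genes. Their median was 1.06, and by pair it was 0.65, 1.25 and 1.21. Their summed normalized counts, of which Fabp4 made up 46.0% to 66.1%, were 24379, 11902 and 14092 with dicoumarol and 43947, 28396 and 30028 with magnolol, against 9829, 4932 and 6055 with vehicle. Against vehicle, whose libraries both comparisons share, the median adipocyte marker stood at 1.35 with dicoumarol and at 2.49 with magnolol. Preadipocyte and stromal progenitor markers summed to 54098, 53129 and 51696 with dicoumarol, 46489, 45799 and 44943 with magnolol and 63156, 56156 and 56133 with vehicle, and no magnolol library overlapped the other 2 groups. Of these 13 tested markers 10 were below 0, with a median of −0.19 and 0 called. The fit of the 6 libraries alone called 6 of them lower and 0 higher, against 2.98% and 3.07% of all genes. In bulk RNA, more cells of a type and more RNA of that type per cell cannot be told apart.

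Dlk1, preadipocyte factor 1, which restrains fat cell formation, had 21524, 20840 and 20384 with dicoumarol and 16884, 15493 and 13982 with magnolol. The groups did not overlap, and the difference was −0.44 ± 0.13 with an adjusted p of 0.244, or 0.000209 in the fit of the 6 libraries alone. Of 8 listed macrophage markers 4 were tested and 0 called, and their sums were 324 to 368 with dicoumarol and 294 to 308 with magnolol, where Lyz2, a lysozyme gene, differed by −0.63 (adjusted p 0.152). Of the skeletal muscle markers 2 were tested and of the osteoblast and chondrocyte markers 3, with 0 called in each. No endothelial marker reached the level tested, and the macrophage genes Ptprc and Adgre1 were not in the table used here. What part these shifts have in the other differences was not tested.

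**Figure D3:**
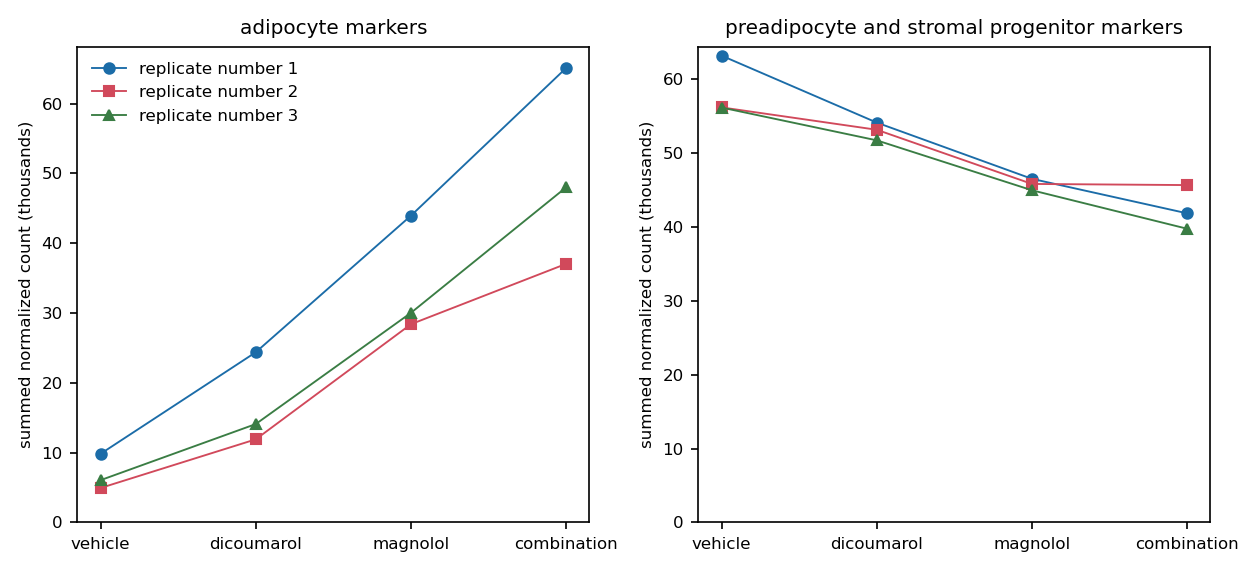
Summed normalized counts of 11 adipocyte markers (left) and of 13 preadipocyte and stromal progenitor markers (right) in the vehicle, dicoumarol, magnolol and combination libraries; points are libraries and lines join the same replicate number. Adipocyte sums are higher and progenitor sums lower with magnolol than with dicoumarol in all 3 lines.

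The proteins that dicoumarol is known to act on have genes that were not called between the compounds. Nqo1 had 1435, 1614 and 1114 normalized counts with dicoumarol and 1367, 1575 and 1008 with magnolol, a difference of −0.083 with a 95% interval of −0.23 to 0.07 (adjusted p 0.726). Vkorc1, the vitamin K epoxide reductase, had 711, 844 and 930 against 700, 664 and 689 with magnolol, without overlap, and its difference was −0.27 with an interval of −0.55 to 0.02 (adjusted p 0.539). Among 23 tested NRF2 targets, the antioxidant genes that include Nqo1, 13 were above 0, 0 were called and the median was 0.019. Of 11 vitamin K cycle and vitamin K-dependent genes, 5 were above 0 and Mgp was the only call. These intervals limit the difference between the compounds and do not show that both left the genes unaltered.

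Stress, hormone and growth lists had 0 calls each with all 15 libraries in the model. With the 6 libraries alone, glucocorticoid targets had 5 of 11 called lower and 1 higher and cell cycle genes 7 of 28 higher and 1 lower, against 2.98% of all genes lower and 3.07% higher, and the other lists of this paragraph had at most 3 calls in each direction. Medians were −0.070 for 22 integrated stress response genes, −0.081 for 18 endoplasmic reticulum chaperone genes, −0.086 for 13 heat shock genes, −0.044 for 26 interferon-stimulated genes and −0.027 for 17 genes of the AHR pathway and xenobiotic enzymes. Glucocorticoid targets had 7 of 11 below 0 with a median of −0.089, cyclic AMP-responsive genes 8 of 15 above 0 with a median of 0.016, contractile genes 7 of 12 above 0 with a median of 0.049, and glycolysis and hypoxia genes 14 of 23 below 0 with a median of −0.030. Manf, a chaperone-like secreted protein of the endoplasmic reticulum, differed by −0.30 (adjusted p 0.243). Cell cycle genes had 19 of 28 above 0 and a median of 0.16. Mki67, a marker of dividing cells, had 1711, 984 and 1486 with dicoumarol and 1730, 1723 and 2348 with magnolol, a difference of 0.50 with an adjusted p of 0.13, while Pcna, the replication clamp, differed by −0.28 (adjusted p 0.273). Quantile normalization moved some small medians by over 1.5 times, to −0.045 for the chaperones, −0.0044 for glycolysis and hypoxia, 0.0065 for cyclic AMP, 0.039 for the NRF2 targets and 0.038 for collagen chains, none with a change of sign. LXR targets had 5 of 8 above 0, and Nr1h3 was the 1 call there as well.

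The called genes were then followed in 3T3-L1 libraries that did not enter the difference. Those libraries were in the model, however, and helped set the spread by which genes were called. The counts that follow are therefore descriptions and not an independent check. Of the 66 genes higher with magnolol, all 66 were higher with rosiglitazone than with vehicle, and limma without the block called all of them, where it called 20.3% of all genes higher. Their median was 2.87, and 49.9% of all genes had a difference above 0 there. In the combination against vehicle, which shares the vehicle libraries, all 66 were again above 0 (48.2% of all genes) and 63 were called, against 3.86% of all genes, with a median of 1.67. Of the 13 genes lower with magnolol, 12 were lower with rosiglitazone than with vehicle and were called (background 19.9%, with 50.1% of all genes below 0). With the combination 13 were lower (51.8% of all genes), 8 of them called (background 1.36%). The exception was Serpinc1, whose rosiglitazone minus vehicle difference was 0.087.

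Fabp4 showed the range: its 3 libraries held 4942, 2489 and 2627 normalized counts with vehicle, 38660, 24082 and 25156 with the combination and 223878, 119470 and 161477 with rosiglitazone. Both single compounds thus lay between vehicle and the combination, with magnolol the higher in each replicate number. For the 951 genes called from the 6 libraries alone, those shares were lower: 82.4% of the higher and 53.1% of the lower genes had the same sign with rosiglitazone. Over all 15723 genes the magnolol minus dicoumarol difference and the rosiglitazone minus vehicle difference correlated weakly, at a Pearson r of 0.265 and a Spearman rho of 0.104, given as a description because genes share libraries and are not replicates.

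**Figure D4:**
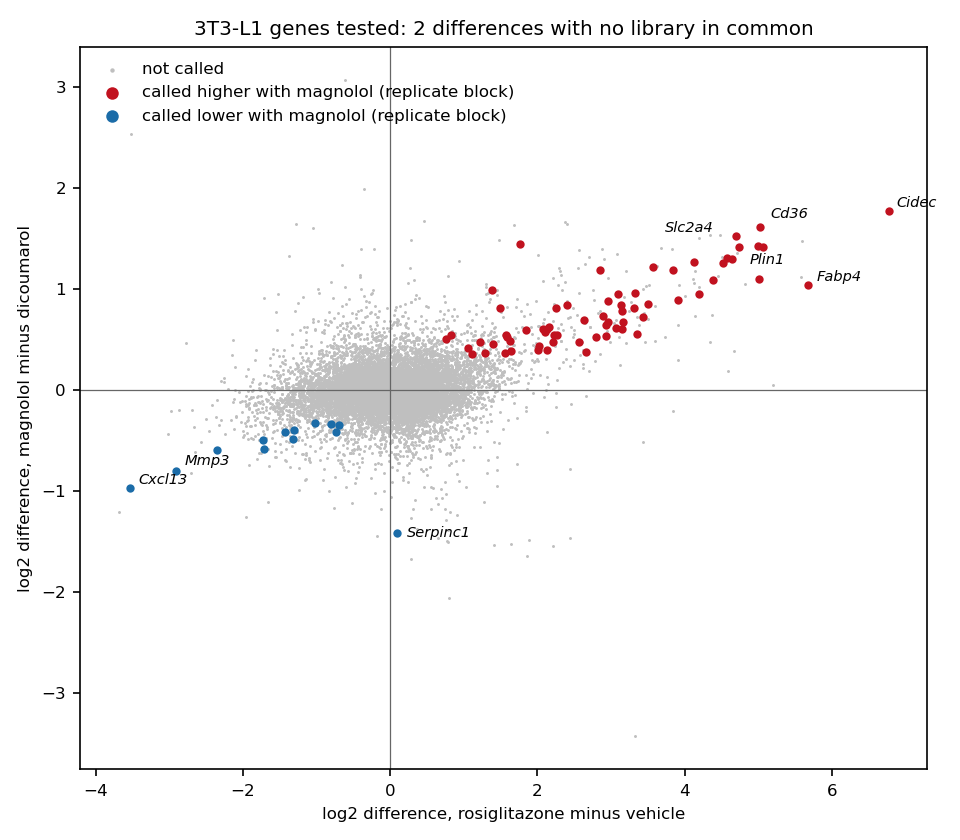
The magnolol minus dicoumarol difference (vertical) against the rosiglitazone minus vehicle difference (horizontal), both log2, for the 15723 genes tested in 3T3-L1 cells; coloured points are the 79 genes called with the replicate block. All 66 red genes lie right of 0, and of the 13 blue genes only Serpinc1 does not lie left of 0.

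The same comparison in porcine DFAT cells was set beside the mouse values for genes of the same symbol. Of 9370 such genes, limma without a block called 123 higher with magnolol (1.31%) and 33 lower (0.352%). Of the 66 mouse genes, 44 had a pig counterpart tested, 28 of them above 0, against 44.6% of the 9370, and 9 were called higher. Of the 13 lower genes, 8 had a counterpart, 5 below 0 (55.4% of the 9370), and Cd9 was called at −0.49 (adjusted p 0.0129).

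Adipoq had 237, 307 and 335 normalized counts with dicoumarol and 1176, 1521 and 1868 with magnolol in DFAT cells, a difference of 2.36 (adjusted p 1.09e-05). Dgat2 differed by 2.16 (adjusted p 1.17e-07), Slc2a4 by 2.28 at levels of 5.90 to 56.2 (adjusted p 0.000961), Plin1 by 1.76 (adjusted p 3.79e-08), Cd36 by 1.27 (adjusted p 1.27e-06) and Fabp4 by 0.70 (adjusted p 0.00297). Lipe, Myh11, a smooth muscle myosin gene, and Prxl2a, a peroxiredoxin-like gene, were the other 3, at 0.65, 0.65 and 0.32; Myh11 and Prxl2a were named after their values were seen. Other genes called in mouse cells with the block did not pass the unblocked fit used for DFAT cells. Cidec stood at 0.39 in DFAT cells (adjusted p 0.268), Acsl1 at 0.14 (adjusted p 0.388) and Cebpa at 0.55 (adjusted p 0.0687). Of the genes not called in mouse cells, Thrsp differed by 2.06 (adjusted p 7.13e-09), Lpl by 0.56 (adjusted p 0.000961) and Nqo1 by −0.40 (adjusted p 0.0129) in DFAT cells. Mouse calls used the replicate block and DFAT calls did not, so passing in 1 system and not in the other compares unlike models. The 2 tables were normalized separately, the induction mixes differ, and the difference between the systems was not tested.

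**Figure D5:**
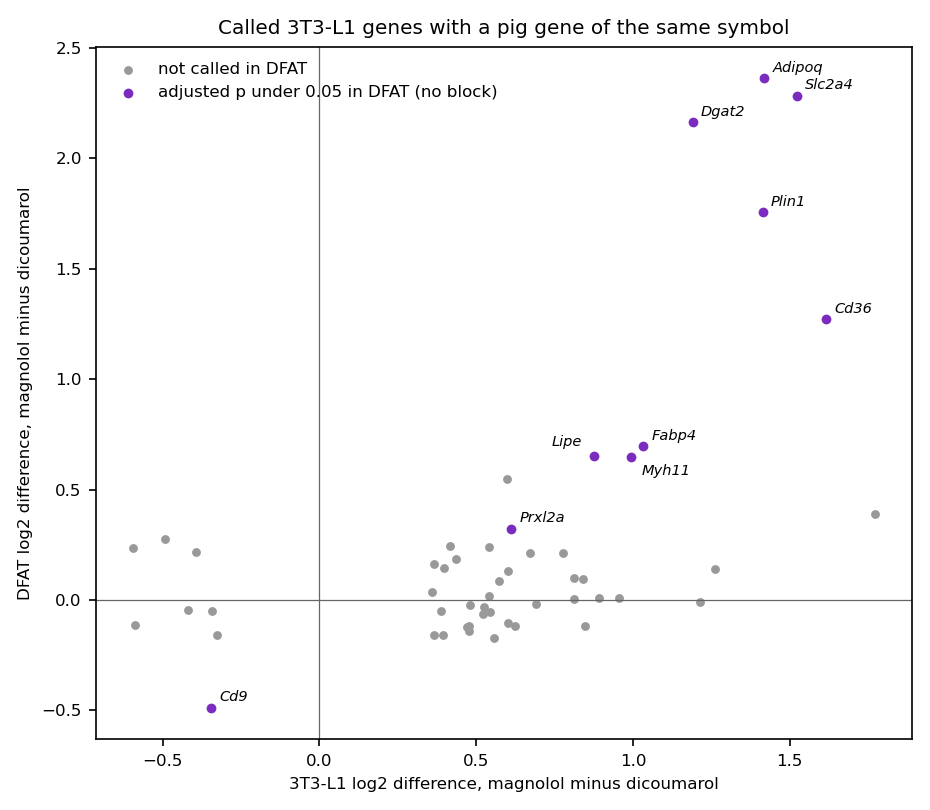
DFAT against 3T3-L1 differences, magnolol minus dicoumarol on the log2 scale, for the 52 called 3T3-L1 genes with a tested pig gene of the same symbol; purple points had an adjusted p under 0.05 in DFAT cells. Adipoq, Slc2a4, Dgat2, Plin1 and Cd36 are above 1 in both systems, and most other genes lie near 0 in DFAT cells.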

How the data were processed

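Bulk poly(A) RNA-seq with strand-marked libraries, per the labels' protocols, was deposited by the authors as size-factor normalized counts, treated here as a signal and not as whole counts; bcl2fastq 2.19.1.403, STAR, DESeq2 and GRCm38 are listed in the submitters' processing notes. Deposited gene starts equalled those of a GRCm38 annotation in 2.18% of 24070 matched genes, so their coordinates are not printed. Only 82.1% to 82.8% of low values were whole reads (tolerance 0.02, up to 20 reads), so counts were not recovered; depth was estimated from these steps. No 2 replicates agreed within sampling noise (chi-square per gene 15.6 to 25.2, where sampling alone gives 1).

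Per table, log2(value + 1) was modelled by limma (version 3.58.1, under R 4.3.3) for genes averaging 10 or more across its 15 libraries, with all 5 groups together and a variance trend, two-sided, Benjamini-Hochberg adjusted over all genes at 0.05. The replicate block was the planned second fit. The labels do not say what a replicate number marks; all 30 same-numbered pairs across the 5 groups correlated above 0.1 (lowest 0.106, median 0.300; unlike numbers, median −0.142), so the numbers pair the 3T3-L1 libraries. In DFAT cells the 3 pairs correlated at 0.153, 0.0510 and 0.118, so the unblocked fit is used there. Both fits were tested on simulated data before use. The simulation gave each gene replicate effects shared by all 5 groups, so it cannot show how the fits behave where those effects differ between groups.

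Named genes were 12 panel genes, the 12 widest differences in each direction among called genes of mean at least 100 with the same direction in 3 pairs, and up to 4 per list by smallest blocked p; others are said to be chosen after their values were seen. The members and the 36 gene lists, written from general knowledge, were chosen with earlier results of these data known. Alternatives were the block, 6 libraries only, scalings, pseudocounts, filters and leaving out libraries. An exact permutation test of 3 against 3 cannot go below 0.1 and was not used. RefSeq windows were matched by symbol. Tables and plots used Python 3.11.15, numpy 2.4.6, pandas 2.3.3 and matplotlib 3.10.9. The result of 1 gene is not reported here.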

Additional observations from a re-analysis of the deposited data

Results flagged for a closer look

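Some genes had differences of opposite sign in the 2 cell systems, and those named here are not all of them. The difference between systems was not tested, and no DFAT value here passed its own test. Lower with magnolol in 3T3-L1 cells but above 0 in DFAT cells were the sodium pump subunit Atp1b1 (0.23 in DFAT), the matrix glycoprotein Tinagl1 (0.28) and Pmepa1 (0.22). Higher with magnolol in 3T3-L1 cells but below 0 in DFAT cells were Nr1h3 (−0.12), Idh3a (−0.12), Crat (−0.16), Lpin1 (−0.12) and Plaat3 (−0.12). Fasn, not called in 3T3-L1 cells, stood at −0.38 in DFAT cells.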

How the results depend on the processing

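Without the replicate block, every alternative tried (other pseudocounts and filters, no filter, no trend, quantile or upper-quartile scaling, 6 libraries only, each library left out) called 0 genes, as did the fit as planned. With the replicate block and its pairing, 79 genes were called; with the block and 6 libraries only, 951. With the block, chosen after seeing the data, quantile normalization gave 71, upper-quartile scaling 67, no variance trend 17, a pseudocount of 10 gave 79 and a minimum mean of 50 gave 82; these kept 68, 63, 17, 77 and 78 of the 79. With the block, 49, 27 and 33 were called without dicoumarol replicate 1, 2 or 3, 34, 23 and 24 without magnolol replicate 1, 2 or 3, and 42, 36 and 3 without replicate 1, 2 or 3 of every group. All 79 kept their direction in each of these blocked fits in which they were tested. No setting other than leaving out a library changed the sign of any of the 63 genes followed through these settings. Plin2, Plin3, Plin4, Cebpb, Klf4 and Klf5 were not among them. Without the block, Nqo1 ranged from −0.23 to 0.097 and Col1a1 from −0.16 to 0.011 with 1 library left out. With genes called from the 6 libraries alone, 82.4% and 92.5% of the higher and 53.1% and 82.3% of the lower genes had the same sign in rosiglitazone and in the combination, against 100%, 100%, 92.3% and 100%. In DFAT cells 156 of the 9370 symbol-matched genes were called, 471 with a replicate block and 75 to 99 with 1 library left out. The cause of these changes was not tested. Slc2a4 and Serpinc1 rest on low levels, where depth limits precision most.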

Other observations

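Of the 66 genes higher with magnolol, 40 were in none of the lists, and of the 13 lower genes 10 were in none. The following of them were chosen after their values were seen. Plaat3, a phospholipase of fat cells, had 836, 398 and 648 normalized counts with dicoumarol and 1412, 796 and 1118 with magnolol, a difference of 0.85 ± 0.08 (limma with block, adjusted p 0.000425), and was called in all 9 fits that left out libraries. Sort1, sortilin, a sorting receptor of GLUT4 vesicles, had 682, 414 and 642 against 1155, 820 and 1038 without overlap (0.81, adjusted p 0.00429). Noct, nocturnin, a circadian deadenylase-family protein, had 407, 266 and 328 against 704, 485 and 563 without overlap (0.81, adjusted p 0.00305). Slc25a10, the mitochondrial dicarboxylate carrier, differed by 0.60 (adjusted p 0.00144), and the potassium channel gene Kcnk3 by 0.84 (adjusted p 0.00558). Of the 9 fits that left out libraries, Sort1, Noct and Slc25a10 lost their calls without replicate 3 of every group (adjusted p 0.125, 0.205 and 0.0717). Kcnk3 lost its call in 4: without dicoumarol replicate 2, without magnolol replicate 2 or 3, and without replicate 3 of every group (highest 0.189).

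Cytosolic ribosomal protein genes, a list chosen after the values were seen, were below 0 in 79 of 81 tested, with a median of −0.17 and 0 calls. Of all 15723 genes tested, 7734 were below 0. The fit of the 6 libraries alone called 20 of the 81 lower and 0 higher, against 2.98% and 3.07% of all genes. Their medians by pair were −0.049, −0.26 and −0.19.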
